A study of Mus musculus with 41 samples.

Results

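The comparison described here is that of the hippocampus with the cortex in SAMP8 mice at 6 months of age. Its members were chosen by their labels, as the 3 SAMP8 hippocampus libraries and the 4 SAMP8 cortex libraries of that age, and make up 7 of the 41 libraries of the series. The series profiled total RNA of whole cortex and of hippocampus from male SAMP8 mice, a senescence-accelerated prone strain, and from male SAMR1 mice, the senescence-accelerated resistant control strain, at 2.5, 6 and 9 months. The mice of both strains came from the same supplier, their labels list no treatment or transgene, and they were perfused before the regions of 1 hemisphere were dissected. The mouse numbers in the labels pair the hippocampus libraries 1, 2 and 3 with the cortex libraries 1, 2 and 3 (mice 21, 35 and 36), whereas cortex library 4 came from mouse 38, a number that libraries of 2.5 months also bear, so that numbers were read within an age only. Libraries of 2.5 months were used beside them: 3 hippocampus and 3 cortex libraries of SAMP8, and 8 libraries of SAMR1. The comparison addressed how the 2 regions differed within this strain at 6 months, and how far genes that mark the hippocampus stood out from the cortex in hippocampus libraries of low depth.

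The hippocampus is built from granule cells of the dentate gyrus and from pyramidal cells of the fields CA1, CA2 and CA3, and each of these neuron types is known by its own genes, such as Prox1 in granule cells and Amigo2 in CA2. The cortex is layered, with excitatory neurons that carry Cux2 in the upper layers and Fezf2 in the deep ones, and with Tbr1 as a regulator of their identity. Both regions border on other tissues: white matter with oligodendrocytes runs along each of them, choroid plexus and ciliated ependyma line the ventricle beside the hippocampus, and the striatum lies below the cortex.

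The 3 hippocampus libraries held 418346, 372166 and 217457 counts, against 33042689, 4308562, 1965442 and 2472687 in cortex libraries 1 to 4. In the hippocampus, 3 counts corresponded to 7.17, 8.06 and 13.8 CPM (counts scaled to a common library total), which sets the level below which a gene could not be followed in single libraries. Mitochondrial genes held 3.92% to 5.75% of the counts in the hippocampus and 3.13% to 3.72% in the cortex (its part in the results was not tested). With the cortex libraries thinned to 335990 counts each, 30 of the 6836 genes then tested were called, 24 higher and 6 lower, and 9 of these were among the 12 called with all counts. Cortex library 2 stood apart from the other cortex libraries before any comparison. Its summed CPM of 12 choroid plexus genes was 6930, against 241 to 338 in the other 3, and its summed CPM of 12 oligodendrocyte genes was 993, against 2727 to 3828. Its 8 CA1 genes summed to 522 CPM, against 182 to 364, and its 8 CA2 genes to 322, against 112 to 162. Results are therefore given with and without this library where it changed them. Among the cortex libraries of 2.5 months, library 2 held only 28861 counts.

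Of 12184 genes tested, 12 were called (0.0985%), which needed a log2 fold change of 1 or more and an adjusted p no higher than 0.1 in edgeR's quasi-likelihood test with Benjamini-Hochberg adjustment. Of these, 9 genes were higher in the hippocampus (0.0739%) and 3 were lower (0.0246%). At an unadjusted p under 0.05 stood 1297 genes. Of the 9 higher genes, Mal and Cldn11 are on the oligodendrocyte list and Cabp7 on a hippocampal list, and the others were Tspan2, Ttyh2, Gpr37, Plekhb1, Gm2115 and Syde2. The lower genes were Ppp1r1b, Bmp1 and one without a symbol. The count rested on single libraries: it was 0 without hippocampus library 1, 2 without library 2, 0 without library 3, 10 without cortex library 3, 1 without cortex library 4, 15 without cortex library 1 and 57 without cortex library 2. The unadjusted counts without hippocampus libraries 1 and 3 were 1945 and 1668. DESeq2 called 271 genes, among them all 12, and the fit with a replicate block for the mouse called 18, of which 7 were shared.

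**Figure D1:**
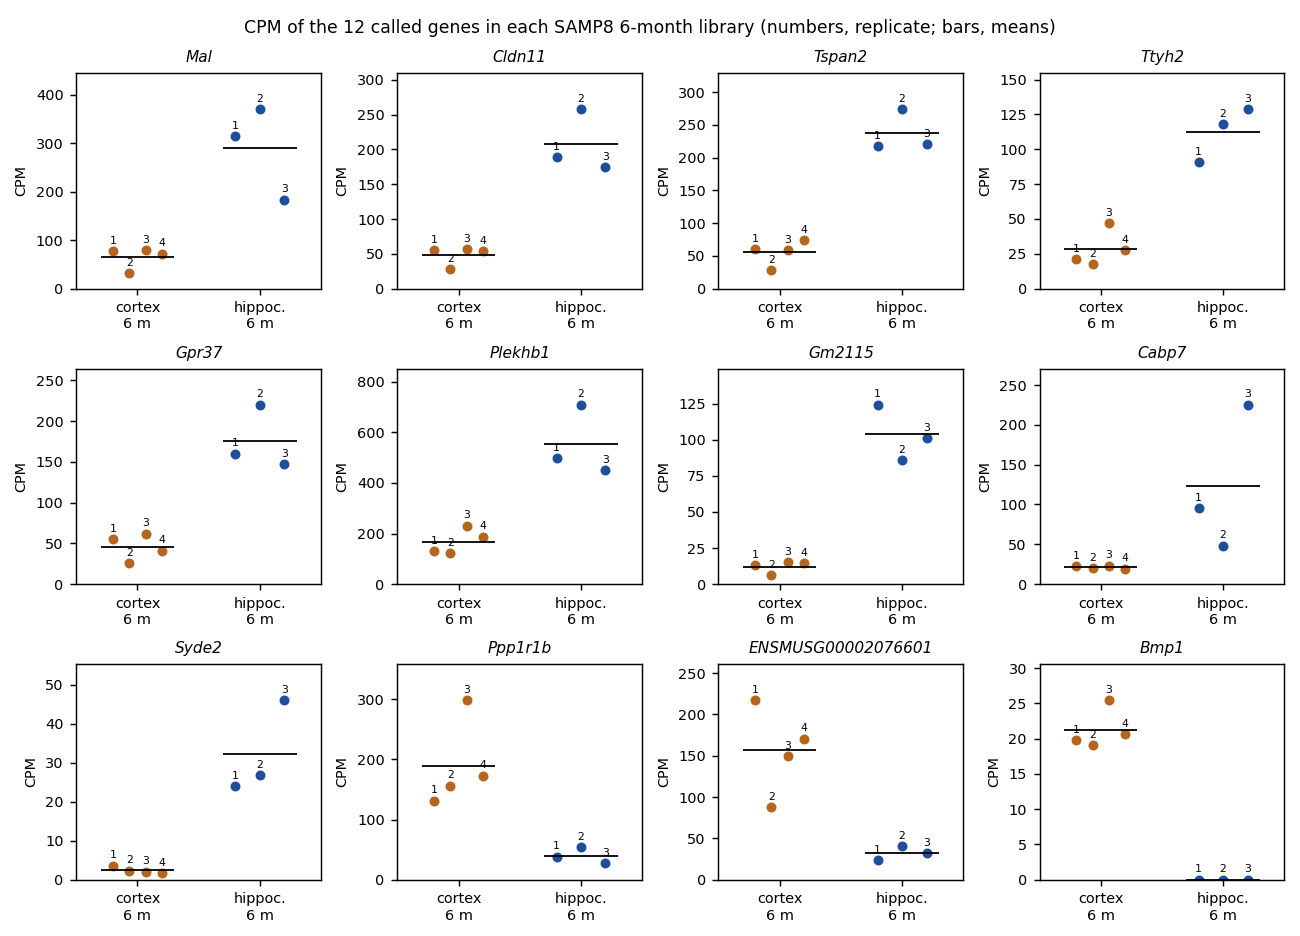
CPM (vertical axis) of each of the 12 called genes in the 4 cortex and 3 hippocampus libraries of SAMP8 at 6 months; points are libraries with their replicate number and bars are group means. In each panel the groups do not overlap, and Bmp1 has 0 counts in the 3 hippocampus libraries.

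Genes of oligodendrocytes, the cells that wrap axons in myelin, lay above the cortex in each hippocampus library by their sum. The 12 genes of the oligodendrocyte list summed to 10924, 11304 and 7146 CPM in hippocampus libraries 1 to 3, and to 3828, 993, 3390 and 2727 CPM in cortex libraries 1 to 4. All hippocampus libraries lay above all cortex libraries, and the ratio of the means was 3.58, or 2.95 without cortex library 2 (exact two-sided permutation p = 0.0571, the smallest that 3 against 4 libraries allow). The exact test, here and below, treated the libraries as independent and did not use their pairing by mouse. Within the mice, the ratio of hippocampus to cortex was 2.85 in mouse 21, 11.4 in mouse 35 and 2.11 in mouse 36. All 12 genes had a log2 fold change above 0, with a median of 1.74 beside -0.09 over all genes tested. Of the 12, 2 were called (Mal and Cldn11), and the count was 5 with the replicate block, 10 with DESeq2 and 6 with limma voom. Over all 12184 genes these fits called 12, 18, 271 and 17. Of the list, 4 were called without cortex library 1, 5 without cortex library 2 and 2 without cortex library 3. The count of the list was 0 without cortex library 4 or any of the 3 hippocampus libraries. In 10 of the 12 genes the 3 hippocampus libraries lay above the 4 cortex libraries, as they did in 5.65% of all genes tested.

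Mal, a proteolipid of compact myelin, read 316, 371 and 184 CPM in the hippocampus and 78.1, 32.5, 79.4 and 72.4 CPM in the cortex. The groups did not overlap, and the log2 fold change was 2.03 ± 0.35 (SE; adjusted p = 0.0375, edgeR). Cldn11, the claudin of myelin's tight junctions, read 189, 258 and 175 CPM in the hippocampus and 55.4, 27.6, 57.0 and 54.2 CPM in the cortex, a log2 fold change of 1.96 ± 0.32 (adjusted p = 0.0375, edgeR). In both genes cortex library 2 was the lowest library, and the adjusted p without it was 0.0277 for Mal and 0.0261 for Cldn11.

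Among the called genes outside the list were 4 that are also known from oligodendrocytes: Tspan2, a tetraspanin (log2 fold change 1.96 ± 0.33), Ttyh2, a tweety family membrane protein (1.88 ± 0.36), Gpr37, an orphan receptor of the myelinating lineage (1.80 ± 0.34), and Plekhb1, also called evectin-1 (1.61 ± 0.27). Tspan2 read 218, 274 and 221 CPM in the hippocampus and 27.9 to 74.4 CPM in the cortex, again without overlap. With the replicate block Gpr37 and Ttyh2 lost their calls, at an adjusted p of 0.102 and 0.101 (edgeR). Mag, an adhesion molecule of the inner myelin layer and a gene of the list, gave 1.77 ± 0.37 (adjusted p = 0.123, and 0.06 with the block, edgeR).

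At 2.5 months the same list summed to 6642 ± 1818 CPM in the SAMP8 hippocampus (SD, n = 3) and 3478 ± 1249 CPM in the cortex (n = 3), a ratio of 1.91. The cortex libraries gave 3361, 4781.5 and 2292 CPM. The highest, library 2, held only 28861 counts, so the ratio rests in part on it. In the fit of the 13 SAMP8 libraries the median log2 fold change of the 12 genes was 1.71 at 6 months and 1.06 at 2.5 months. None of the 12 had an interaction that was called, and 1 had an unadjusted p under 0.05, beside 694 of 12184 genes tested in both fits. Whether white matter taken with the hippocampus, the number of oligodendrocytes or their RNA content moved was not tested. In bulk tissue, fewer cells of a type and less RNA per cell cannot be told apart.

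**Figure D2:**
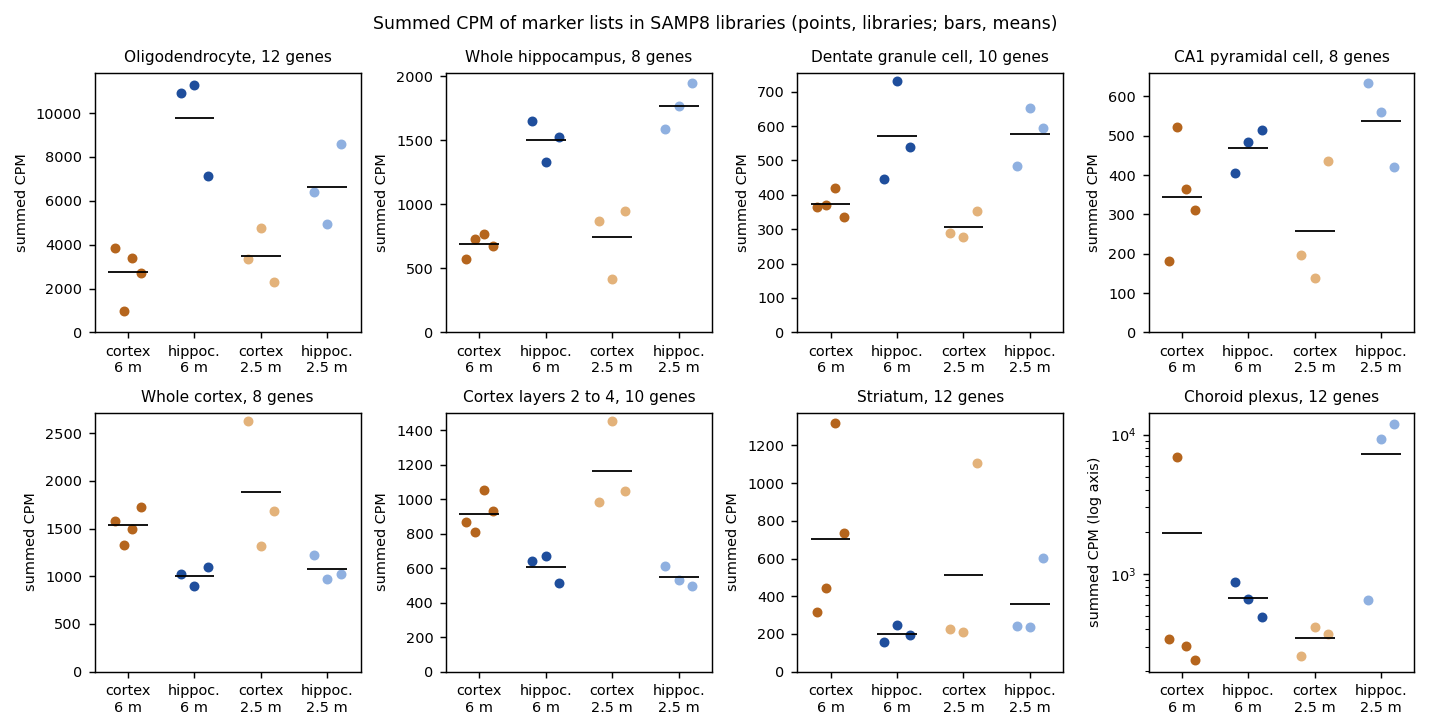
Summed CPM (vertical axis, logarithmic for choroid plexus) of 8 marker lists in the SAMP8 cortex and hippocampus libraries of 6 and 2.5 months; points are libraries and horizontal bars are group means. Oligodendrocyte genes at 6 months span 7146 to 11304 CPM in the hippocampus and 993 to 3828 CPM in the cortex, and 1 cortex library of 6 months has choroid plexus genes at 6930 CPM.

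By their sums, marker genes of the whole hippocampus, of granule cells and of CA3 lay higher in the 3 hippocampus libraries than in any cortex library at 6 months, whereas those of CA1 and CA2 overlapped. The 8 genes of the whole hippocampus summed to 1652, 1333 and 1527 CPM in the hippocampus and 572, 732, 769 and 678 CPM in the cortex, without overlap and with a ratio of the means of 2.19. The 10 granule cell genes summed to 445, 731 and 538 CPM against 365, 371, 420 and 335 CPM (ratio 1.53), and the 8 CA3 genes to 194, 231 and 202 CPM against 132, 124, 160 and 140 CPM (ratio 1.5). For each of these 3 lists the exact p was 0.0571. The lists of microglia, endothelium and oligodendrocyte precursors, which do not mark the hippocampus, also lay higher in each hippocampus library than in any cortex library. Their ratios were 1.37, 1.38 and 1.45, with the same exact p. The CA1 genes (404, 484 and 515 CPM) and the CA2 genes (196, 261 and 198 CPM) overlapped with cortex library 2. Without it, their ratios were 1.64 and 1.56, against 1.36 and 1.18 with it.

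Of the 42 genes on these 5 lists, 35 passed the filter on low counts, and 25 of the 35 had a log2 fold change above 0, beside 5355 of 12184 over all genes tested. The median of the 35 was 0.51. Genes low in the cortex passed the filter only through high hippocampus values. Examples are Lct, C1ql2 and Amigo2, at 1.12 to 2.79, 0.97 to 3.25 and 2.72 to 8.09 CPM in the cortex. In 10 of the 35 the hippocampus libraries lay above all cortex libraries, as they did in 5.65% of all genes tested. In 1 of the 35, Coch, they lay below all cortex libraries, as they did in 6.3% of all genes tested. Of the 35, edgeR called 1, Cabp7, a calcium-binding protein, beside 12 of 12184 over all genes. DESeq2 called 9 of the 35, beside 271 over all genes: Prox1, Lct, C1ql2, Gpr161, Amigo2, Homer3, Cabp7, Hpca and Zbtb20. The count was 1 with the replicate block, where Hpca was called in place of Cabp7, and 0 with limma voom. It was 3 without cortex library 2, and 0 without hippocampus library 1 or 3 or without cortex library 3 or 4. Cabp7 read 95.6, 48.4 and 225 CPM in the hippocampus and 22.8, 19.96, 23.4 and 19.4 CPM in the cortex, a log2 fold change of 2.31 ± 0.41 (adjusted p = 0.0511, or 0.102 with the replicate block, edgeR).

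Gm2115, a gene outside the rule for named genes and named after its values were seen, gave the smallest p of the comparison. Its reading was 124, 86.0 and 101 CPM in the hippocampus and 12.95, 6.03, 15.3 and 14.6 CPM in the cortex. The log2 fold change was 2.97 ± 0.40 (adjusted p = 0.0142, edgeR), and 15 of 17 alternative fits called it, the exceptions being those without hippocampus library 1 and without library 3. In SAMP8 at 2.5 months it stood at 130 ± 26.7 CPM in the hippocampus (SD, n = 3).

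Among the granule cell genes, Prox1, the homeobox regulator of granule cell identity, read 71.7, 64.5 and 138 CPM in the hippocampus and 18.6, 25.5, 30.5 and 14.6 CPM in the cortex. The groups did not overlap, and the log2 fold change was 1.87 ± 0.38 at 6 months (adjusted p = 0.123, edgeR). Without cortex library 2 it was called, with an adjusted p of 0.0829. Lct, which encodes lactase, rested on 4, 6 and 10 counts in the hippocampus libraries, and was likewise called only without cortex library 2 among the fits that left out a library (log2 fold change 3.46 ± 0.78, adjusted p = 0.139 with all 7). C1ql2, a synaptic organiser of mossy fibres, gave 2.88 ± 0.82 (adjusted p = 0.205, edgeR) and rested on 6, 6 and 2 counts in the hippocampus libraries.

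The CA field markers were uneven. In CA2, Amigo2, a cell adhesion molecule, read 52.6, 26.9 and 9.20 CPM in the hippocampus and 2.72 to 8.09 CPM in the cortex (2.70 ± 0.67, adjusted p = 0.161, edgeR). Its hippocampus values rested on 22, 10 and 2 counts, and the last lay below the 13.8 CPM of 3 counts in that library. Rgs14, a signalling regulator of the same cells, read 47.8, 21.5 and 27.6 CPM against 31.1 to 50.1 CPM and overlapped. Fibcd1, a CA1 marker, read 33.5, 10.7 and 18.4 CPM against 2.42 to 9.16 CPM, with a log2 fold change of 1.64 ± 0.68. In the 13-library fit its region difference was 1.66 at 6 months and 3.20 at 2.5 months, an interaction of -1.54 ± 0.88 that was not called (adjusted p = 0.806, edgeR). Wfs1, the endoplasmic reticulum protein wolframin and another CA1 marker, read 57.4, 107 and 156 CPM in the hippocampus and 281 CPM in cortex library 2, above each of them. Of the CA3 markers, Homer3, a scaffold of glutamate receptors, gave 2.24 ± 0.61, and Bok and Nectin3 gave 0.67 ± 0.61 and 0.55 ± 0.43. Zbtb20, a repressor needed for CA1 identity, read 650, 591 and 345 CPM against 173 to 285 CPM (1.12 ± 0.28, adjusted p = 0.161), and Hpca, the calcium sensor hippocalcin, 598, 425 and 809 CPM against 172 to 307 CPM (1.23 ± 0.28, adjusted p = 0.14, or 0.06 with the replicate block, edgeR).

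How far the hippocampal signal stood from that of the cortex was measured as a position. On this scale 0 is the mean of the 4 SAMR1 cortex libraries of 2.5 months and 1 the mean of the 4 SAMR1 hippocampus libraries. These references differ from the libraries of 6 months in strain and age. A position below 1 is therefore not a measure of dilution by other tissue, which was not tested. The genes were taken from that SAMR1 contrast, in which 344 of 15390 genes, or 2.24%, were called, and the SAMR1 values are a description of that choice. With a log2 fold change of 1.5 or more, an adjusted p no higher than 0.05 and 5 CPM or more in the higher region, 60 genes were hippocampus-high and 80 cortex-high. By the 60 genes the hippocampus libraries of 6 months lay at 0.38, 0.30 and 0.45 (0.38 ± 0.07, SD, n = 3), and the cortex libraries at -0.03, 1.42, 0.01 and -0.02. The 4 SAMR1 hippocampus libraries, whose mean is 1, lay at 0.45, 2.35, 0.55 and 0.65. Those of the SAMP8 hippocampus at 2.5 months lay at 0.46, 2.15 and 2.50. At 6 months the means of hippocampus and cortex were 0.38 and 0.35, with an exact p of 0.914. Their difference of 0.03 turned to -0.02 on TMM-scaled CPM and to -0.18 by the genes with a log2 fold change of 2.5 or more. Measures less weighted to the highest genes separated the regions: the median of the per-gene positions was 0.35 in the hippocampus and 0.03 in the cortex, and without the 5 genes of highest CPM the positions were 0.57 and 0.04 (exact p = 0.0571 for each). Without cortex library 2 the difference was 0.39. Of that library's 5178 CPM over the 60 genes, 4377 were of Ttr, the choroid plexus transthyretin, which made up 40.4% of the summed CPM of the 60 genes in the SAMR1 hippocampus. Ttr read 8.14, 4377, 7.12 and 4.85 CPM in the cortex libraries and 316, 126 and 244 CPM in the hippocampus.

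When the 27 genes of choroid plexus and motile cilia among the 60 were set aside, a choice made after the values were seen, the remaining 33 separated the regions. The hippocampus libraries lay at 0.59 (95% Poisson interval 0.52 to 0.67), 0.50 (0.43 to 0.58) and 0.80 (0.69 to 0.92), and the cortex libraries at -0.06, 0.12, 0.04 and -0.02. The intervals cover counting error only. The mean of 0.63 ± 0.15 (SD, n = 3) in the hippocampus stood against 0.02 ± 0.08 (n = 4) in the cortex (exact p = 0.0571). The SAMP8 hippocampus libraries of 2.5 months, which had no part in the choice of the genes, lay at 0.85, 0.93 and 0.91, above all 3 of 6 months (exact p = 0.1, the smallest for 3 against 3). The single SAMR1 hippocampus libraries ranged over 0.76 to 1.36. By the 42 listed hippocampal neuron genes the positions at 6 months were 0.74, 0.85 and 0.81, against 0.92, 1.14 and 1.13 at 2.5 months. The summed CPM of the 42 genes was 2970 ± 75.0 at 6 months and 3315 ± 165 at 2.5 months (SD, n = 3 each).

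**Figure D3:**
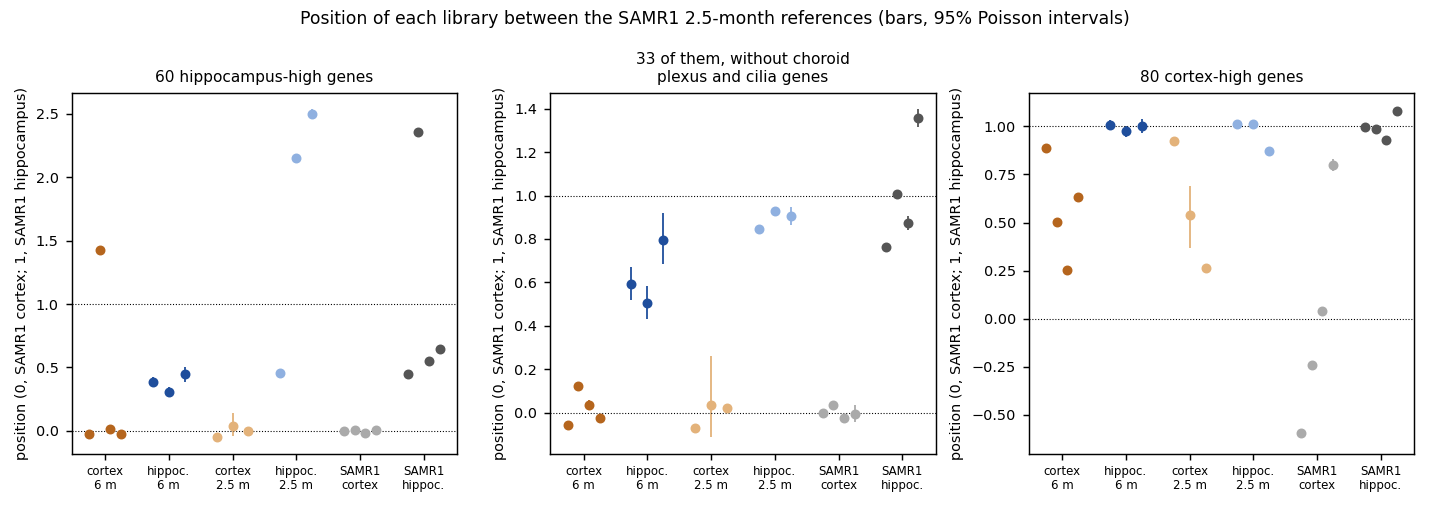
Position (vertical axis, 0 for the SAMR1 cortex mean and 1 for the SAMR1 hippocampus mean of 2.5 months) of each library by 60 hippocampus-high genes, by 33 of these without choroid plexus and cilia genes, and by 80 cortex-high genes; points are libraries and bars 95% Poisson intervals. By the 33 genes the hippocampus libraries of 6 months lie between 0.50 and 0.80, below the 0.85 to 0.93 of the SAMP8 hippocampus at 2.5 months and above all cortex libraries.

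By the 80 cortex-high genes the 3 hippocampus libraries lay at 1.01, 0.97 and 1.00, the place of the SAMR1 hippocampus, and the 4 cortex libraries at 0.89, 0.50, 0.25 and 0.63. The mean position of the hippocampus by these cortex-high genes was 0.99 ± 0.02 (SD, n = 3), whereas by the 60 hippocampus-high genes it was 0.38. By the 60 genes the single SAMR1 hippocampus libraries ranged over 0.45 to 2.35. By the 80 genes the cortex libraries were spread over most of the range, as were those of SAMR1, from -0.60 to 0.80. Genes on the short striatum and meninges lists made up 15 of the 80, and without these the positions of the 2 regions were 0.97 ± 0.01 and 0.48 ± 0.30. Whether the 65 genes left held further genes of these tissues was not tested. The place of the cortex depended on the genes: it was 0.57 ± 0.27 (SD, n = 4) by the 80 genes, -0.09 ± 0.33 by 28 genes chosen on SAMP8 at 2.5 months and -0.40 ± 0.37 by the 36 listed layer genes.

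Gene by gene, 24 of the 33 genes passed the filter on low counts, 23 of the 24 had a log2 fold change above 0 at 6 months, and 2 were called, Cabp7 and Gm2115. A gene low in the cortex passed this filter only if its hippocampus values were high, which favours values above 0. Among the genes that did not pass, Krt73 (0 against 2.32 CPM) and Kcng2 (1.79 against 3.00 CPM) had a lower mean in the hippocampus, and the rest a higher one. The median log2 fold change of the 24 was 1.5 at 6 months. In the fit of the 13 SAMP8 libraries, the median was 1.48 at 6 months and 2.70 at 2.5 months, and the difference between the ages was below 0 in 23 of 24 genes, with a median of -0.84. Over all genes tested in both fits, 7209 of 12184 differences were below 0, with a median of -0.15. The fit of 13 libraries also held the genes of the 33 that did not pass. Of these, Slc26a4, 2310002F09Rik and Klk8 went the other way, at 3.31, 3.72 and 2.45 at 6 months and 0.88, 2.40 and 1.73 at 2.5 months. The rest had a lower value at 6 months. Of the 24, 3 had an interaction with an unadjusted p under 0.05, beside 694 of the 12184, and none was called. Dsp, the desmosomal protein desmoplakin of granule cells, had 19.1, 43.0 and 9.20 CPM in the hippocampus at 6 months and 54.8 ± 26.4 CPM at 2.5 months, and its region difference in the 13-library fit was 2.01 at 6 months and 5.33 at 2.5 months. That interaction was -3.32 ± 1.21, and -1.65 ± 0.97 without cortex library 2, which held 17.2 CPM. Prox1 was the exception among the 24, at 1.84 and 1.67, an interaction of 0.17 ± 0.54. St18, which encodes a zinc finger protein, had 2.32 and 2.33.

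**Figure D4:**
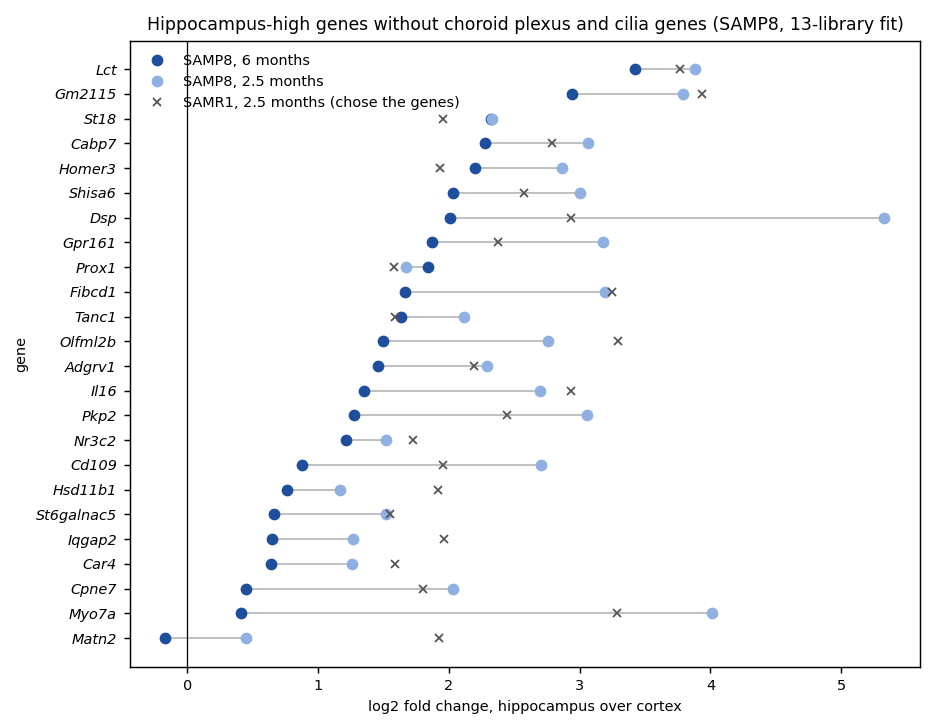
Log2 fold change of hippocampus over cortex (horizontal axis) of the 24 tested hippocampus-high genes without choroid plexus and cilia genes, in SAMP8 at 6 and at 2.5 months (both from the fit of 13 libraries) and, as the contrast that chose the genes, in SAMR1 at 2.5 months; lines join the ages. The points of 6 months lie to the left of those of 2.5 months in 23 of 24 genes, with Prox1 as the exception.

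Across all genes, the region difference at 6 months minus that at 2.5 months in SAMP8 was called in 0 of 13616 genes (0%), and 959 had an unadjusted p under 0.05. With DESeq2 the count was 0 too, with 673 at that level, and the fit with a replicate block called 12, each lower at 6 months. In the fit of 13 libraries without the block, 43 of 13616 genes (0.316%) differed between the regions at 2.5 months. The smallest p-values toward a lower value at 6 months were those of Bmp1, of Ttr and the secreted lysophospholipase Enpp2, both on the choroid plexus list, and of Igfbp2 and Ace. The Ttr and Enpp2 values rested in part on cortex library 2, in which Enpp2 read 1967 CPM against 221 to 321 CPM in the other 3. The interaction of Ttr was -11.15 ± 2.57 and that of Enpp2 -4.03 ± 0.95, and without that library they were -4.03 ± 1.04 and -2.80 ± 0.70, not called in either fit (adjusted p = 0.456 and 0.408 for each, edgeR). The log2 fold change at 6 months itself turned without that library, from -2.31 to 4.89 for Ttr and from -0.87 to 0.43 for Enpp2. The choroid plexus list summed to 877, 656 and 492 CPM in the hippocampus of 6 months and to 644, 9317 and 11872 CPM in that of 2.5 months. Without hippocampus library 1 of 2.5 months, the lowest of these, 3 interactions were called: Igfbp2, Ace and Enpp2. The part of the choroid plexus in these differences was not tested.

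Markers of the whole cortex and of its upper layers lay lower in the hippocampus by their sums, those of the deep layers overlapped, and no single gene of these lists passed the test. The 8 genes of the whole cortex summed to 1025, 903 and 1094 CPM in the hippocampus and 1584, 1330, 1491 and 1727 CPM in the cortex, and the 10 genes of layers 2 to 4 to 641, 669 and 515 CPM against 867, 811, 1053 and 933 CPM. Neither list overlapped between the regions, and each had a ratio of 0.66 and an exact p of 0.0571. The lists of layers 5 and 6 gave ratios of 1.28 and 1.16 and overlapped. Of 34 cortical genes tested, 24 were below 0 (median -0.54), and edgeR called 0 of the 34. An unadjusted p under 0.05 was found in 15, beside 1297 of 12184 over all genes tested. By DESeq2, 3 of the 34 were called, beside 271 over all genes: Lamp5, Stard8 and Mef2c.

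Mef2c, an activity-dependent transcription factor of excitatory neurons, read 490, 392 and 340 CPM in the hippocampus and 737, 764, 841 and 944 CPM in the cortex. Its log2 fold change was -1.12 ± 0.25 (adjusted p = 0.134, and 0.0842 without cortex library 2, edgeR). Lamp5, a marker of upper-layer and neurogliaform cells, read 62.1, 80.6 and 9.20 CPM against 95.4 to 232 CPM (-1.91 ± 0.46, adjusted p = 0.161, and 0.0716 without cortex library 2). Tbr1 gave -1.02 ± 0.39, Cux2 -0.86 ± 0.29 and Rorb, a layer 4 nuclear receptor, -0.58 ± 0.33. Fezf2 and Foxp2, of layers 5 and 6, gave 0.41 ± 0.45 and -0.21 ± 0.57.

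The striatum list had the lowest ratio of hippocampus to cortex among the lists, with sums of 158, 247 and 193 CPM against 315, 444, 1316 and 733 CPM in the cortex. The groups did not overlap (exact p = 0.0571), and the ratio of the means was 0.28. All 10 tested genes were below 0, with a median of -1.90, and 1 was called: Ppp1r1b, which encodes DARPP-32, the dopamine-regulated phosphatase inhibitor of striatal projection neurons. It read 38.2, 53.7 and 27.6 CPM in the hippocampus and 131, 157, 299 and 173 CPM in the cortex (-2.31 ± 0.36, adjusted p = 0.0375, edgeR). The cortex library with the highest Ppp1r1b, library 3, was also that with the highest striatal sum. At 2.5 months its log2 fold change was -0.29 ± 0.42 in SAMP8 and -2.44 ± 0.44 in SAMR1, where it is one of the 80 cortex-high genes, and its interaction with age in SAMP8 was not called (-2.06 ± 0.62, adjusted p = 0.471, edgeR). Drd2, the dopamine receptor of the indirect pathway, was at 0 counts in the 3 hippocampus libraries and at 1.09 to 6.11 CPM in the cortex, and it did not pass the filter. These cortex values lie below the 7.17 to 13.8 CPM to which 3 counts correspond in the hippocampus libraries, so the 0 counts do not show absence. The part of striatal tissue in the fall of Ppp1r1b was not tested.

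The other called genes did not belong to a list. Bmp1, a secreted metalloproteinase that processes procollagen (chromosome 14, 70474558 to 70520234, GRCm38), had no count in any of the 3 hippocampus libraries and read 19.7, 19.03, 25.4 and 20.6 CPM in the cortex. Against a floor of 3 counts over the group's 1007969 counts, it was at least 7.13-fold lower in the hippocampus (adjusted p = 0.0955, and 0.224 with the replicate block, edgeR). Of the other 38 libraries of the series it was at 0 in 1, and at 2.5 months the SAMP8 hippocampus stood at 17.4 ± 3.16 CPM. Of 8690 genes with at least 15 CPM in the cortex mean, 2 were at 0 in the hippocampus, Bmp1 and Abi3bp. Syde2, a GTPase-activating protein, had 10 counts in each hippocampus library, or 23.9, 26.9 and 46.0 CPM, against 1.62 to 3.63 CPM in the cortex (3.43 ± 0.65, adjusted p = 0.084, and 0.431 with the block, edgeR). It passed the filter on low counts only through its hippocampus values, and it was not tested with the cortex libraries thinned. Of 16 alternative fits that tested Syde2, 8 called it. Its region difference at 2.5 months was 0.01 ± 0.66, an interaction that was not called (adjusted p = 0.474, edgeR). The gene ENSMUSG00002076601, which has no symbol in the annotation used and was named after its values were seen, read 23.9, 40.3 and 32.2 CPM against 217, 88.2, 150 and 171 CPM (-2.44 ± 0.41, adjusted p = 0.0375, edgeR).

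Among the other cell types, astrocyte genes summed to 10754, 9797 and 7542 CPM in the hippocampus and 6521 to 9767 CPM in the cortex, which overlapped. Gfap, the intermediate filament of astrocytes, read 810, 887 and 602 CPM against 158, 379, 570 and 231 CPM, without overlap (1.11 ± 0.33, adjusted p = 0.237, edgeR). Gja1, the gap junction protein connexin 43, read 483, 468 and 478 CPM against 187 to 308 CPM (0.81 ± 0.23, adjusted p = 0.206, edgeR). The microglial list summed to 524, 736 and 533 CPM against 312 to 515 CPM (ratio 1.37), with none of its 10 genes called and none at an unadjusted p under 0.05. Of the genes known from the thalamus, 7 of 8 were above 0 (median 0.86) and none was called. Endothelial genes had a ratio of 1.38, interneuron genes of 1.01 and ependymal genes of 2.61, or 5.04 without cortex library 2. Foxj1, the master regulator of motile cilia, read 23.9, 37.6 and 18.4 CPM against 1.02 to 11.1 CPM (2.41 ± 0.73, adjusted p = 0.24, and 0.0833 without cortex library 2, edgeR).

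The receptor lists were near even between the regions. The 22 glutamate receptor genes summed to 4265 ± 479 CPM in the hippocampus and 4160 ± 299 CPM in the cortex, and the 12 GABA-A receptor genes to 2024 ± 106 and 2011 ± 215 CPM (SD, n = 3 and 4). Of these 34 genes edgeR called 0, while 6 had an unadjusted p under 0.05, beside 1297 of 12184 over all genes tested. By DESeq2, 2 of the 34 were called, Gabra3 and Gabra5, beside 271 over all genes. Within the GABA-A list the subunits differed in direction without passing the test. Gabra5, the alpha subunit of extrasynaptic receptors in the hippocampus, read 167, 102 and 138 CPM in the hippocampus and 54.6 to 75.2 CPM in the cortex (0.96 ± 0.29, adjusted p = 0.24, edgeR). Gabra3 read 100.4, 110.2 and 46.0 CPM against 161 to 242 CPM (-1.28 ± 0.32, adjusted p = 0.161, edgeR). Gria1, an AMPA receptor subunit, read 567, 505 and 851 CPM against 171 to 502 CPM (0.76 ± 0.30). Of 18 potassium channel genes none was called and 1 had an unadjusted p under 0.05, and the same was true of the 8 immediate early genes tested.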

How the data were processed

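Total RNA libraries (CORALL kit, ribosomal RNA depleted, with molecular identifiers) were made from cortex and hippocampus of male mice. Per the authors' methods, identifiers were extracted, reads trimmed with cutadapt and aligned with STAR, and genes counted on the forward strand with featureCounts, and per the file headers duplicates were collapsed by identifier before counting. The deposited table holds raw counts per gene for 41 libraries. Symbols and coordinates came from GENCODE M21 (GRCm38) by gene ID, which matched 52083 of 55359 IDs (94.1%). The authors name release M29 with GRCm38, and 0.1% of ID versions equal those of M21.

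The 7 libraries were fitted with edgeR 4.0.16 (TMM scaling, filterByExpr, quasi-likelihood test, Benjamini-Hochberg adjustment over all genes), with the authors' thresholds of an adjusted p of 0.1 and a log2 fold change of 1. Interactions and the region differences of SAMP8 at 2.5 months came from a fit of 13 SAMP8 libraries. Sums and positions used CPM of total counts. Named genes were the called genes with a symbol, up to 4 of each list with the smallest p, a set of region markers, and the leading interactions. DESeq2 1.42.0 and limma 3.58.1, other filters and scalings, thinned cortex libraries, a mouse block and leave-outs were alternatives. The code was tested on simulated data. Members and lists were chosen with earlier results of these data known. The labels pair hippocampus and cortex libraries 1 to 3 by mouse. Deviations from the group means correlated at 0.16, -0.04 and 0.03 in these pairs, against -0.17 to 0.08 between libraries of different mice. No 2 libraries of a group agreed within sampling noise (chi-square over its degrees of freedom, 4.03 or more). Some results for single genes are not reported here.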

Additional observations from a re-analysis of the deposited data

Results flagged for a closer look

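Among 61 values of the 4 cortex libraries of 6 months, 7 had 1 library far from the other 3 by Dixon's criterion. Chance alone would give about 1 in 20 if the values were independent and normally distributed, which these CPM values, some of shared genes, are not known to be. Cortex library 2 was that library in 5 of the 7. Its position by the 60 hippocampus-high genes was 1.42, against -0.03 to 0.01, its summed CPM of choroid plexus genes was 6930, against 241 to 338, and its Ttr was 4377 CPM, against 4.85 to 8.14. Ttr is part of both the position and the sum, so these flags are not separate. It was low in the myelin genes Mal (32.5 CPM, against 72.4 to 79.4) and Cldn11 (27.6 CPM, against 54.2 to 57.0). Cortex library 3 had the highest sum of astrocyte genes, at 9767 CPM against 6521 to 6966, and cortex library 1 the lowest sum of endothelial genes, at 69.5 CPM against 82.6 to 84.9.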

How the results depend on the processing

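With 12 genes called at 6 months, the count was 271 with DESeq2, 487 without a filter on low counts, 605 with all 41 libraries in the fit, 49 with the 13 SAMP8 libraries, 30 with the cortex libraries thinned to the hippocampus depth, and 7 at an adjusted p of 0.05 with no fold threshold. With a replicate block for the mouse, a paired analysis, it was 18, and 132 in that fit without mouse 35, an alternative chosen after seeing the data. Leaving out 1 library gave 0 to 57. The interaction with age went from 0 calls to 121 without a filter, 12 with the replicate block and 2 with all 41 libraries, and to 0 to 3 without 1 library. At 2.5 months, 201 genes were called in place of 43 when the 6 libraries were fitted alone. The cause of these shifts was not tested.

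The position of the hippocampus by the 60 genes, 0.38, was 0.30 at a log2 fold change of at least 2.5, 0.57 without the 5 genes of highest CPM and 0.29 against both strains. Among choices made after seeing the data, it was 0.63 without choroid plexus and cilia genes (0.54 by the median gene, 0.544 on TMM-scaled CPM, 0.66 against both strains) and 0.80 by the 42 listed genes. By the 80 cortex-high genes, 0.99, it was 1.09 by the median gene, 1.02 on TMM-scaled CPM, 0.92 with genes chosen on SAMP8, 0.97 without the top 5 genes, 1.01 against both strains, and, chosen after seeing the data, 0.972 without the listed striatal and meningeal genes and 1.14 by the 36 layer genes. The log2 fold change of Ttr was -2.31 and turned to 4.89 without cortex library 2 (range without 1 library -2.74 to 4.89) and to 5.01 with the block and without mouse 35. Over 1954 pairs of a named gene and an alternative, 1747 kept direction and call, 68 lost a call, 102 gained one, 35 moved and 2, both of Ttr, reversed. Depth limits single hippocampal genes below about 3 counts.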
